A study of Mus musculus with 36 samples.

Results

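Hes1 encodes a basic helix-loop-helix repressor that is switched on directly by the Notch receptor. It is 1 of the 34197 genes in the deposited count table, and it was taken by its gene symbol over all 36 libraries. The table holds bulk RNA profiles of organoids, small epithelial structures grown from mouse duodenum (C57BL/6 males or virgin females older than 8 weeks). The organoids were not enriched for a cell type and were held on a microfluidic chip under flow. They received pulses of DAPT, a gamma-secretase inhibitor, with a period of 90 min (1.38 µM), 130 min (2 µM) or 170 min (2.6 µM, where the labels also name 2 µM), or the solvent DMSO as control. Exposure lasted 24, 48 or 72 h, in organoids passaged 3, 2 or 1 days earlier, and each of the 12 groups had 3 libraries of 20 to 50 organoids. The period therefore changed together with the dose, and their parts in any difference between the pulsed groups cannot be told apart. Time since passage, counted to the start of exposure, was shorter for longer exposures, and the parts of these also cannot be told apart. By these labels, the time from passage to the end of exposure did not change with duration. The series set out to look for small shifts in cell type composition after pulsing at these periods.

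When a Notch receptor meets its ligand, the gamma-secretase complex cuts it and frees its intracellular domain, which joins the DNA-binding protein Rbpj and activates Hes1. In the intestinal crypt, Hes1 keeps progenitors out of the secretory fate by repressing Atoh1, the master regulator of goblet, Paneth and enteroendocrine cells. Hes1 protein also represses its own gene, its RNA and protein are short-lived, and its level oscillates in many progenitor cells. A bulk library averages over all cells of a sample at the moment of collection. The point in the pulse cycle at which a sample was collected may differ between periods, and no test here took it into account. In such a sample, fewer cells expressing a gene and less RNA per cell cannot be told apart.

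Total counts per library ran from 482741 to 1447330 (median 958749), and 11462 genes passed the filter on low counts. Epithelial and duodenal identity were present in every library: all 9 epithelial markers were tested, with a summed level of 2670 to 4010 CPM (counts as a share of the library total, scaled to 1000000), and so were all 7 duodenal markers (649 to 1747). Markers of crypt stem cells summed to 1086 to 2514. Fibroblast markers summed to 0 to 5.25 and immune markers to 0 to 14.6, and none of either list passed the filter. Of 6 endothelial markers 1 was tested, and they summed to 10.4 to 57.3. Whether replicates are separate cultures or animals is not in the labels, and p-values measure the spread between these libraries only.

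Hes1 was readily counted everywhere, with 192 to 464 counts per library and 11299 in all, which placed it 282nd among all genes. Its level over the 36 libraries was 328.4 ± 35.4 CPM (SD, n = 36), and it ranged from 277 to 408. Counting error alone gave a mean SD of 18.8 CPM. The variance between libraries of the same group was 2.79 times the counting variance. Its biological coefficient of variation in edgeR was 0.10, against 0.145 for genes in common.

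After 24 h in DMSO, Hes1 stood at 397.7, 280.2 and 395.2 CPM in replicates 1, 2 and 3. Pulses every 90 min gave 276.6, 280.8 and 282.7, pulses every 130 min 363.5, 319.1 and 326.1, and pulses every 170 min 351.8, 349.8 and 320.6. The 3 libraries pulsed every 90 min were all low and lay within a few CPM of each other. They fell below every library of the other pulse periods, but DMSO replicate 2 was as low as they were, so the 90 min and DMSO groups overlapped. That DMSO group held the widest spread of the study (357.7 ± 67.1, n = 3). Its replicate 1 was also the shallowest library, and an exact 95% binomial interval, which covers counting error only, placed that value between 343.5 and 458.1 CPM.

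After 48 h, the DMSO libraries gave 301.7, 332.3 and 331.9 CPM. Hes1 was 279.9, 282.0 and 316.8 with 90 min pulses, 340.6, 374.3 and 347.4 with 130 min pulses, and 310.4, 352.1 and 407.7 with 170 min pulses. The 90 min libraries were again low, with replicate 3 reaching into the DMSO range, although each of the 3 lay below the DMSO library of its own number. All 3 libraries at 130 min lay above all 3 in DMSO and above all 3 at 90 min, and those at 170 min spread across the ranges of the other groups.

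After 72 h, Hes1 was 366.0, 317.6 and 312.3 CPM in DMSO and 347.0, 329.2 and 296.3 with 90 min pulses. It was 340.4, 298.1 and 346.3 with 130 min pulses and 350.6, 277.2 and 320.1 with 170 min pulses. All 4 groups overlapped at this time, and the lowest library was 170 min replicate 2.

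**Figure D1:**
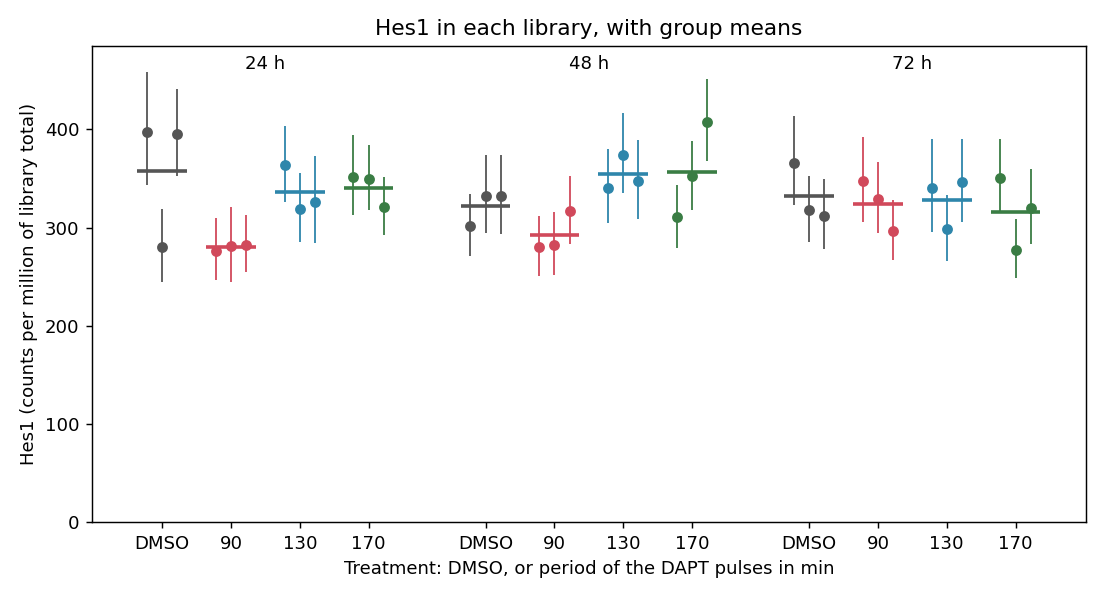
Hes1 level in each library, as CPM of the library total, by treatment and hours of exposure; points are libraries, thin vertical lines exact 95% binomial intervals (counting error only) and horizontal bars group means. The 90 min libraries at 24 h cluster at 277 to 283, while the DMSO libraries at 24 h spread from 280 to 398.

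Ordered by mean, the groups ran from DMSO at 24 h (357.7), 170 min at 48 h (356.7) and 130 min at 48 h (354.1) down to 90 min at 48 h (292.9 ± 20.7) and 90 min at 24 h (280.0 ± 3.12). The other 7 groups lay between 316.0 and 340.7. No step between neighbours in this order exceeded the pooled within-group SD of 32.2 CPM. The widest step, 23.1, separated 170 min at 72 h from 90 min at 48 h. The whole order spanned 77.7 CPM, so its top and bottom differed by more than that spread while neighbours did not.

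Averaged over durations, Hes1 was lowest with 90 min pulses. At 24 and 48 h the 90 min group had the lowest mean of its time, and at 72 h the 170 min group did (316.0, against 324.2 at 90 min). Over the 9 libraries of each treatment it was 337.2 ± 41.0 CPM in DMSO (280 to 398, median 332) and 299.0 ± 25.7 with 90 min pulses (277 to 347, median 283). It was 339.5 ± 22.9 with 130 min pulses (298 to 374, median 341) and 337.8 ± 36.4 with 170 min pulses (277 to 408, median 350). DMSO, 130 min and 170 min thus had nearly the same mean, and 8 of 9 libraries at 90 min lay below the DMSO mean. The ranges of all 4 treatments overlapped.

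In edgeR's quasi-likelihood test over all 36 libraries, Hes1 was lower by 0.22 on the log2 scale with 90 min pulses than in DMSO (log2 difference -0.22, SE 0.076, 95% interval -0.37 to -0.07). Its unadjusted p was 0.00656, the 102nd smallest of 11462 genes, and its adjusted p was 0.585. Across the alternatives other than leaving out replicates, that adjusted p ran from 0.189 to 1.0. edgeR called 0 genes in this comparison (0% of those tested), DESeq2 and limma voom also called 0, and 969 genes (8.45%) had an unadjusted p under 0.05. The same test placed 130 min 0.03 above DMSO (SE 0.076, interval -0.13 to 0.18, edgeR adjusted p 0.998). It placed 170 min 0.04 below (log2 difference -0.04, SE 0.075, interval -0.19 to 0.11, adjusted p 0.905). For 130 min against DMSO edgeR again called 0 genes, with 622 (5.43%) at an unadjusted p under 0.05, and DESeq2 called 7. For 170 min the counts were 0 in all 3 tools, with 980 genes (8.55%) unadjusted. All pulsed groups together differed from DMSO by -0.08 (SE 0.062, interval -0.20 to 0.05, edgeR adjusted p 0.815), beside 767 genes (6.69%) at an unadjusted p under 0.05 and 0 called by edgeR, DESeq2 or limma voom.

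Between pulse periods, Hes1 at 90 min was lower than at 130 min by a log2 difference of -0.25 (SE 0.076, interval -0.40 to -0.09, edgeR p 0.00243, adjusted p 0.267). This comparison had 1409 genes (12.3%) at an unadjusted p under 0.05, and 0 called by edgeR, 3 by limma voom and 18 by DESeq2. Across the alternatives other than leaving out replicates, the adjusted p of Hes1 ran from 0.0638 to 0.862. These include leaving out the libraries under 700000 counts or the 24 h groups. Hes1 at 170 min was 0.18 above 90 min (SE 0.075, interval 0.03 to 0.33, edgeR p 0.0217, adjusted p 1.0). Here only 143 genes (1.25%) had an unadjusted p under 0.05, 0 were called by edgeR, DESeq2 or limma voom, and Hes1 ranked 49th. The 170 min and 130 min values differed by -0.07 (SE 0.075, interval -0.22 to 0.09, edgeR adjusted p 0.746), with 1398 genes (12.2%) unadjusted, 0 called by edgeR or limma voom and 4 by DESeq2.

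A second test used Hes1 alone, as log2 CPM of the library total. It exchanged treatment labels within durations over all 8000 arrangements (exact, two-sided, smallest possible p 2.5e-04), for 6 pairs of treatments. The difference of 90 min from 130 min was -0.18 (exact permutation p 0.00525, adjusted over the 6 pairs 0.0315). Of the 9 libraries at 90 min, 7 lay below the 130 min mean of their own duration. On the trimmed-mean (TMM) scale and on linear CPM the adjusted exact p of that pair was 0.0165 and 0.033. The difference of 90 min from DMSO was -0.17 (exact p 0.0355, adjusted 0.071) and that of 170 min from 90 min 0.17 (exact p 0.02775, adjusted 0.071), and neither passed after adjustment. The other 3 pairs differed by at most 0.02 in size, with an adjusted exact p of 0.9615 each. Only the pair of 90 and 130 min passed. It no longer passed when replicate 1, 2 or 3 was left out everywhere (adjusted exact p 0.111 to 0.259). These runs had 216 arrangements and a smallest possible p of 0.00926. A single pair at that p would not pass after adjustment over the 6 pairs. They therefore could not decide whether the result hangs on 1 replicate number. The difference itself was -0.20 to -0.17 in them. The test treated libraries of a duration as exchangeable. Yet libraries of the same replicate number correlated in some pairs of treatments and not in others. At 24, 48 and 72 h their mean r was 0.24, 0.30 and 0.10 for 90 min with DMSO. It was 0.42, 0.44 and 0.40 for 170 with 130 min, and -0.04, -0.08 and -0.06 for 90 with 130 min. What these numbers stand for is not in the labels.

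Taken at each duration, the 90 min difference from DMSO was -0.44 at 24 h (SE 0.133, interval -0.71 to -0.17), -0.17 at 48 h and -0.05 at 72 h. At 24 h its edgeR p was 0.00222 (adjusted 0.453, the 40th smallest), beside 1112 genes (9.7%) with an unadjusted p under 0.05 and 0 called by edgeR, 0 by limma voom and 1 by DESeq2. For 130 min the differences were -0.09, 0.17 and 0.01, and for 170 min -0.16, 0.14 and -0.09. The 170 min value at 48 h was 0.026 without its replicate 3, and that at 24 h was -0.028 without replicate 3 and -0.33 without replicate 2 of every group. None of these 8 further differences had a Hes1 adjusted p under 0.05. The share of all genes with an unadjusted p under 0.05 was 4.46%, 2.48% and 10.3% for 130 min at 24, 48 and 72 h, 11.9%, 3.25% and 2.18% for 170 min, and 1.53% and 0.995% for 90 min at 48 and 72 h. The interaction of treatment with duration had p 0.228 (edgeR F test, adjusted 1.0, with 2.25% of genes unadjusted), so the smaller values at later times were not shown to differ from the one at 24 h. Without the 24 h groups, the mean 90 min difference from DMSO was -0.10. At 24 h the 90 min difference was -0.31 without replicate 1 of every group, -0.34 without replicate 3 and -0.63 without replicate 2, which holds the low DMSO library.

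The groups whose libraries did not overlap at a given time were few. At 24 h, 90 min lay wholly below 130 min, as did 3.72% of all tested genes, and 170 min lay wholly above 90 min, as did 2.46%. At 48 h, 90 min lay wholly below 130 min (4.19% of genes) and 130 min wholly above DMSO (2.81%). With 3 libraries against 3, an exact permutation test at one duration cannot go below 0.1.

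Duration left Hes1 nearly level: 328.7 ± 43.7 CPM at 24 h, 331.4 ± 37.0 at 48 h and 325.1 ± 26.3 at 72 h (n = 12 each). In edgeR the log2 difference of 48 h from 24 h was -0.02 (interval -0.15 to 0.11), that of 72 h from 24 h -0.02 (-0.15 to 0.11), and that of 72 h from 48 h 0.002 (-0.13 to 0.13). The shares of all genes with an unadjusted p under 0.05 were 9.58%, 14.8% and 12.6%, and edgeR called 0, 21 and 0 genes, DESeq2 17, 102 and 9, and limma voom 0, 26 and 98. The F test over durations had p 0.942 (edgeR, adjusted 0.976), and 1659 of all genes (14.5%) had an unadjusted p under 0.05. The F test over treatments had p 0.0114 (edgeR, adjusted 0.430), beside 1086 genes (9.47%).

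Hes1 moved with library depth. Its level as a share of the total fell as the total rose, with Pearson's r of -0.49 to the log2 library total over 36 libraries (permutation p 0.00225, adjusted over 30 relations 0.0135) and Spearman's rho of -0.47 (adjusted permutation p 0.0167). Without the 2 libraries farthest from the median total, r was -0.41. Among deviations from the 12 group means r was -0.55 (adjusted permutation p 0.0157), and within durations it was -0.39, -0.61 and -0.77. Within treatments r was -0.67 in DMSO, -0.49 at 90 min, -0.16 at 130 min and -0.44 at 170 min. With TMM scaling, r was -0.67 over all libraries and -0.73 within groups. edgeR put the slope at -0.36 per doubling of the total (SE 0.074, adjusted p 9.07e-04), one of 1820 genes (15.9%) whose slope passed.

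Abundant genes shared this relation. Of the 281 tested genes with more counts than Hes1, 278 (98.9%) had a negative r to the total, against 36.3% of all tested genes, and 124 (44.1%) had a lower r than Hes1. Their median r was -0.64, against 0.13 over all tested genes. These counts and values of r are on the TMM scale, where r for Hes1 was -0.67. The 3488 genes at 100 CPM or more held between 61.4% and 72.4% of a library's counts, and that share had an r of -0.96 to the log2 total. The highest count of any gene in any library was 2775.

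**Figure D2:**
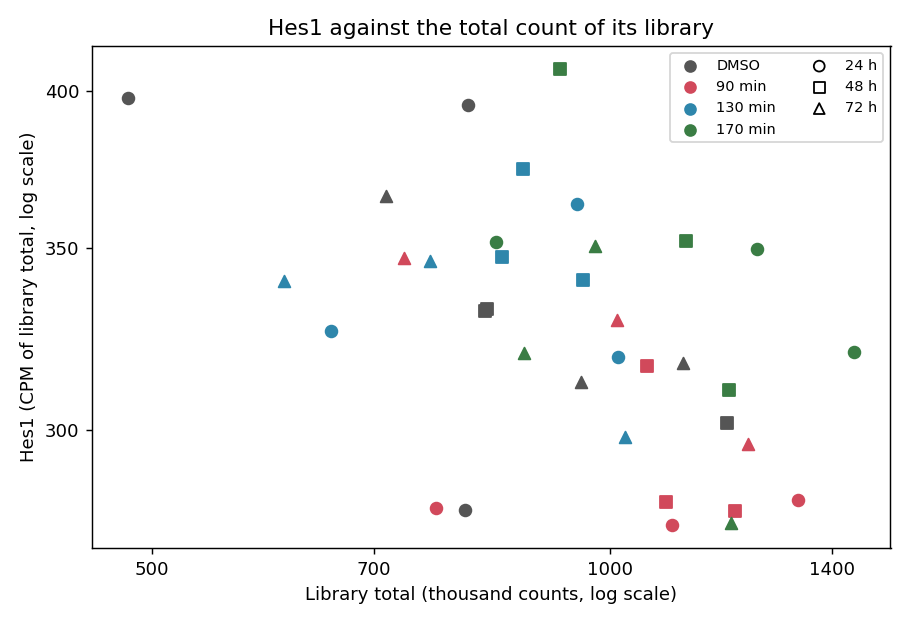
Hes1 as CPM of the library total against the total count of each library, both axes on a log scale, with colour for treatment and shape for hours of exposure. Hes1 tends to be higher in shallower libraries (r = -0.49 over 36 libraries on the log2 scale), and the shallowest library, DMSO at 24 h, is at 397.7.

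The treatments differed in depth. The mean total was 859263 in DMSO, 1058607 at 90 min, 855825 at 130 min and 1093666 at 170 min. The libraries pulsed every 90 min were thus deeper on average than those of DMSO and 130 min, while the 90 and 170 min libraries had much the same mean depth. With the log2 total as a covariate in edgeR, the Hes1 difference of 90 min from DMSO was -0.10 (SE 0.059, p 0.0904, adjusted p 1.0) and that of 90 min from 130 min -0.14 (SE 0.059, p 0.0238, adjusted p 0.765). The difference of 170 min from 90 min was 0.20 (SE 0.053, p 9.14e-04, adjusted p 1.0).

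Scaling to the library total gave -0.17 and -0.19 for 90 min against DMSO and 130 min. Scaling to the summed counts of the abundant genes, a setting chosen after the data were seen, gave -0.12 and -0.13. Thinning every library at random to 482741 counts gave -0.26 and -0.25, and leaving out the 3 libraries under 700000 counts gave -0.18 and -0.23. The 90 min value kept its lower side in each of these settings, and none passed the adjusted threshold. For 170 min against 90 min, the same settings gave 0.18 to 0.20. The part of depth in the Hes1 differences was not tested beyond these values.

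**Figure D3:**
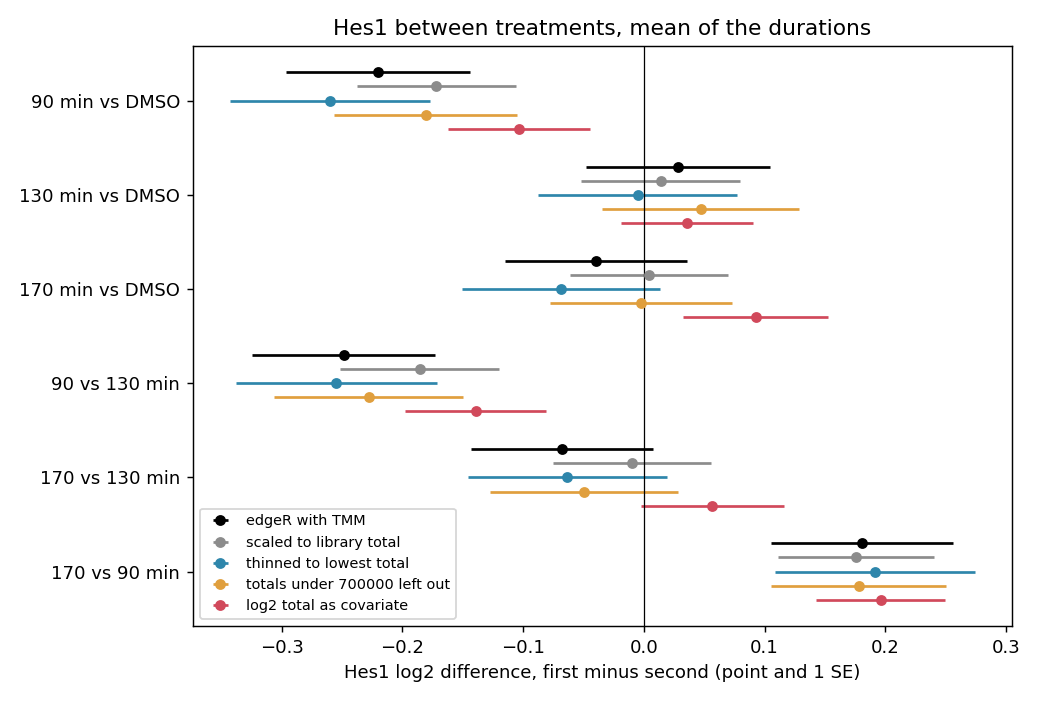
Log2 difference in Hes1 between pairs of treatments, mean of the 3 durations, under 5 ways of handling depth; points are edgeR estimates and bars are 1 standard error. The 90 min difference from DMSO shrinks from -0.22 to -0.10 with the library total as a covariate, and the difference of 170 from 90 min stays between 0.18 and 0.20.

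The mitochondrial share of counts also moved with Hes1. It averaged 1.1% in DMSO, 1.02% at 90 min, 1.20% at 130 min and 1.08% at 170 min, so it was lowest at 90 min and highest at 130 min, as Hes1 was. Its r with Hes1 was 0.55 over 36 libraries (adjusted permutation p 0.007, rho 0.54, 0.48 without the 2 farthest libraries). Within durations r was 0.49, 0.69 and 0.61, and within groups it was 0.44 (adjusted permutation p 0.171). The share tended to be lower in deeper libraries. It was 1.48% in the shallowest (DMSO, 24 h, replicate 1) and 0.92% in the deepest (170 min, 24 h, replicate 3). Its relation to Hes1 with depth removed and its part in the treatment differences were not tested.

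Among the ligands that switch Notch on, Dll4 and Dll1, which goblet, Paneth and other secretory cells present to their neighbours, had higher values with 90 min pulses than in DMSO. Dll4 differed by 0.53 (SE 0.14, edgeR p 3.91e-04, adjusted p 0.577) and Dll1 by 0.24 (SE 0.12, adjusted p 0.603). Both tended to be higher in deeper libraries, with r to the log2 total of 0.36 for Dll4 and 0.34 for Dll1 on the TMM scale, and the part of depth was not tested. Jag2 differed by 0.18 (SE 0.18) and Jag1 by -0.03 (SE 0.15). None of the 4 tested ligands passed, and their median of 0.21 stood beside 0.01 over all tested genes. At 170 min against 90 min all 4 ligands were lower, with a median of -0.13, beside 0.004 over all genes.

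Of the receptors, Notch2 differed by -0.03 (SE 0.10) between 90 min and DMSO, and Notch3 by 0.31 (SE 0.33, edgeR adjusted p 0.844). Notch1, the main receptor of the crypt, had 171 counts in all and was not tested. Adam10, which cuts the receptor ahead of gamma-secretase, differed by -0.23 (SE 0.071, edgeR adjusted p 0.585). The gamma-secretase subunit Ncstn differed by -0.20 (SE 0.079, edgeR adjusted p 0.585). Of the 7 tested cleavage genes 4 had higher values and 3 lower (median 0.06), and of the 9 genes of the nuclear complex 6 were higher and 3 lower (median 0.08). Rbpj, which brings that complex to DNA, differed by 0.16 (SE 0.092). The Groucho corepressors that Hes1 recruits had 1 higher and 4 lower among 5 tested (median -0.08). Of the 13 tested modifiers of Notch signalling 8 were higher and 5 lower (median 0.03). No member of any of these lists passed over all genes.

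Within its own family, Hes1 and Hes6 carried nearly all the counts. Of the 9 Hes and Hey genes, only Hes1 and Hes6 were tested. Hes6, which can counteract Hes1, averaged 107 CPM and differed by -0.05 (SE 0.083) between 90 min and DMSO. Summed over 36 libraries, Hes2 had 100 counts, Hes5 48, Hes7 103, Hey1 7, Hey2 8, Heyl 3 and Hes3 1. Nrarp, a feedback inhibitor that Notch induces, had 116 and was not tested. Olfm4, a Notch target and crypt stem cell marker, differed by -0.26 (SE 0.32, edgeR adjusted p 0.877) between 90 min and DMSO. Of the 5 other Notch targets tested, 2 had higher and 3 lower values (median -0.13).

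Of 14 genes listed as repressed by Hes1, 12 were tested, and with 90 min pulses 9 had higher and 3 lower values than in DMSO. Their median difference was 0.24, against 0.01 over all tested genes, and 0 of 12 passed. The other periods, where the mean Hes1 level was close to that of DMSO, gave 10 higher and 2 lower values at 130 min (median 0.16) and 8 higher and 4 lower at 170 min (median 0.17), with 0 of 12 passing in each. The 3 comparisons share the DMSO libraries. Gfi1, a secretory lineage factor, differed by 0.49 (SE 0.18), Spdef, which drives goblet cell maturation, by 0.48 (SE 0.18), and Atoh1 by 0.18 (SE 0.12). On the TMM scale these genes tended to be higher in deeper libraries, with r to the log2 total of 0.38 for Gfi1, 0.49 for Spdef and 0.28 for Atoh1, and the 90 min libraries were deeper than those of DMSO. The part of depth in these differences was not tested. The cell cycle inhibitor Cdkn1b went the other way at -0.17 (SE 0.11), and Cdkn1a was at 0.004 (SE 0.14). Against 130 min the same 12 genes had 5 higher and 7 lower values (median -0.02). At 170 min against 90 min 2 were higher and 10 lower (median -0.10). These comparisons share the 90 min libraries. Of the genes listed as repressed by Hes1, Dll1, Dll4, Hes6 and Neurod1 also stand in another list, Neurod1 among the enteroendocrine markers.

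Library by library, Hes1 moved with Olfm4. Over 36 libraries r was 0.51 (adjusted permutation p 0.007), rho 0.59 and r without the 2 farthest libraries 0.51. Within groups r was 0.51 (adjusted permutation p 0.0212), and within durations it was 0.51, 0.47 and 0.80. For Lgr5, the receptor that marks crypt stem cells, r was 0.48 over 36 libraries (adjusted permutation p 0.0146), rho 0.46 and r without the 2 farthest libraries 0.40. Within groups it was 0.55 (adjusted permutation p 0.0662), and within durations 0.43, 0.40 and 0.78.

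Neither relation was seen among the 9 libraries pulsed every 90 min, where r was 0.04 for Olfm4 and -0.22 for Lgr5. In DMSO, 130 min and 170 min, r for Olfm4 was 0.56, 0.72 and 0.75, and for Lgr5 it was 0.77, 0.61 and 0.71. These values rest on 9 libraries each, and the difference in r between treatments was not tested.

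**Figure D4:**
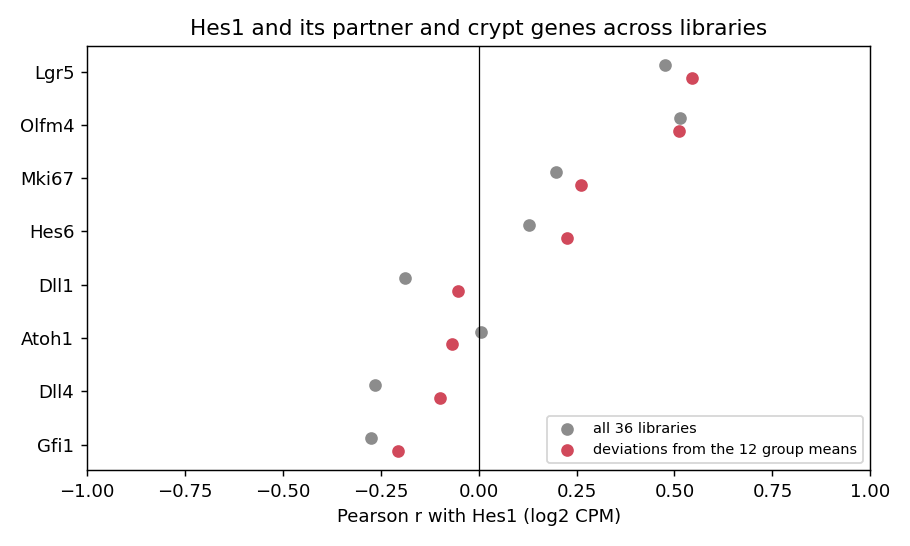
Pearson's r of Hes1 with 8 genes on log2 CPM of the library total; grey points are r over all 36 libraries and red points r among deviations from the 12 group means. Olfm4 (0.51 and 0.51) and Lgr5 (0.48 and 0.55) lie to the right, and Atoh1 lies near 0 (0.006 and -0.07).

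Across libraries, the genes listed as repressed by Hes1 had values of r of either sign. The list does not separate direct from indirect targets. Over 36 libraries r was 0.006 for Atoh1, -0.19 for Dll1, -0.26 for Dll4 and -0.28 for Gfi1. Within groups r was -0.07, -0.05, -0.10 and -0.20 for these genes. For Hes6 r was 0.13 (0.22 within groups) and for the proliferation marker Mki67 0.20 (0.26 within groups). Of the 12 tested genes of that list, 8 had a positive r over 36 libraries on the TMM scale (median 0.05). Values ran from -0.38 for Spdef, the most opposed (-0.31 within groups), to 0.61 for Sox4. None of the relations of Atoh1, Dll1, Dll4, Gfi1, Hes6 and Mki67 passed after adjustment over the 30 relations of either scale. The smallest adjusted permutation p was 0.235 on CPM of the library total and 0.0658, for Mki67, on the TMM scale.

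Looking at whole marker lists, on TMM log2 CPM, within groups and with the log2 total removed, crypt stem cell markers stood closest to Hes1. Of the 9 markers 8 had a positive r, with a median of 0.50, beside 0.007 over all 11461 other tested genes. Cdca7 was at 0.60, Smoc2, a secreted protein of crypt base stem cells, at 0.58, Axin2, a Wnt target, at 0.54 and Lgr5 at 0.50, while Rnf43, which removes Wnt receptors, was at -0.11. Before depth was removed, the stem cell median was 0.51 and that over all genes -0.04.

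Cycling cell markers had 7 of 7 positive, but their median went from 0.57 to 0.23 once the total was removed. Pcna, the sliding clamp of DNA replication, kept 0.53, and Cdk1 went from 0.61 to 0.12. Goblet cell markers had 0 of 7 positive with depth removed (median -0.19), with Tff3 and Agr2 both at -0.47. The epithelial markers had 1 of 9 positive (median -0.44), enterocyte markers 6 of 8 (median 0.03), Paneth markers 7 of 8 (median 0.16) and enteroendocrine markers 8 of 8 (median 0.27). Genes listed as repressed by Hes1 had 9 of 12 positive (median 0.15). Before the total was removed, goblet markers had 3 of 7 positive (median -0.005) and epithelial markers 5 of 9 (median 0.02). Enterocyte markers then had 8 of 8 (median 0.17), Paneth markers 7 of 8 (median 0.17) and enteroendocrine markers 7 of 8 (median 0.14). The listed repressed genes then had 6 of 12 (median 0.002). All these values share the 36 libraries and are given as descriptions.

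**Figure D5:**
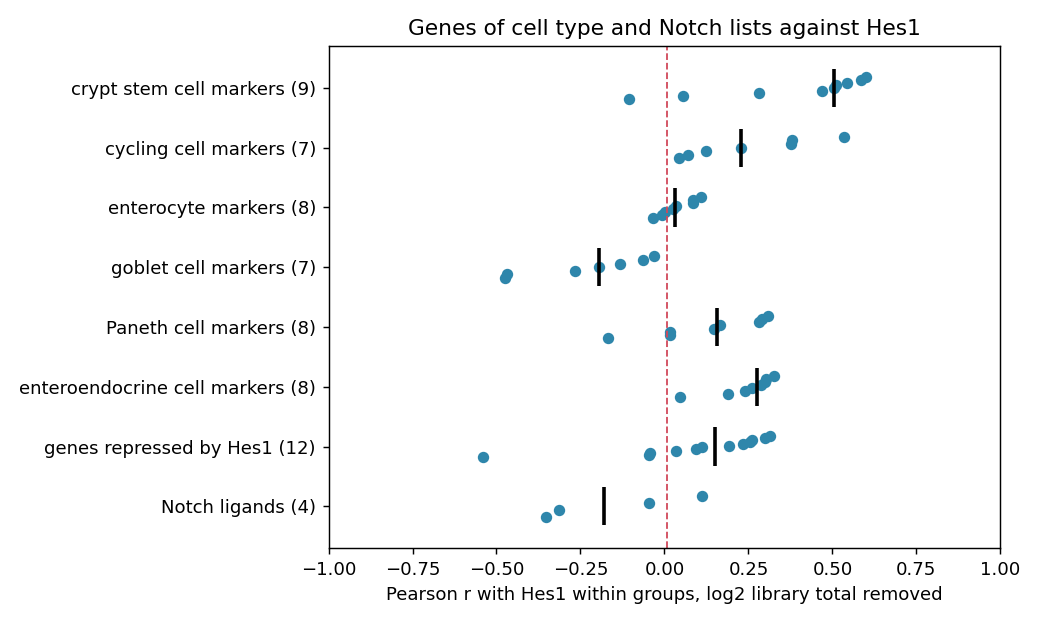
Pearson's r with Hes1 within groups, with the log2 library total removed, for the tested genes of 8 lists; points are genes, black bars list medians and the dashed line the median of all other tested genes (0.007). Crypt stem cell markers have a median of 0.50 and goblet cell markers -0.19. Before the total was removed, these medians were 0.51 and -0.005.

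Summed marker levels by treatment are the background to these relations. Crypt stem cell markers summed to 1513 to 2482 CPM in DMSO, 1490 to 2296 at 90 min, 1239 to 2514 at 130 min and 1086 to 2445 at 170 min, so all treatments overlapped. Between 90 min and DMSO, stem cell markers had 2 higher and 7 lower values (median -0.08), cycling markers 0 higher and 7 lower (median -0.14), goblet markers 7 higher and 0 lower (median 0.15) and enteroendocrine markers 8 higher and 0 lower (median 0.35). At 130 min, with a mean Hes1 level close to that of DMSO, enteroendocrine markers also had 8 higher and 0 lower (median 0.63), goblet markers 6 higher and 1 lower (median 0.05), cycling markers 0 higher and 7 lower (median -0.06) and stem cell markers 6 higher and 3 lower (median 0.01). At 170 min the counts were 6 and 2 for enteroendocrine (median 0.10), 2 and 5 for goblet (median -0.05), 0 and 7 for cycling (median -0.12) and 2 and 7 for stem cell markers (median -0.06). Over all tested genes the median difference from DMSO was 0.013 at 90 min, 0.001 at 130 min and 0.013 at 170 min. Of the cycling markers, Pcna and Mki67 tended to be lower in deeper libraries (r -0.80 and -0.50 to the log2 total, TMM scale). The 90 and 170 min libraries were deeper on average than those of DMSO. No marker passed. The part of depth in these marker differences and that of cell composition in the Hes1 difference were not tested.

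By r over all 36 libraries on TMM log2 CPM, the genes whose pattern was most like that of Hes1 were Hnrnph1 (0.79), Snx1 (0.76), Pum2 (0.76), Idh3g (0.76) and Rpl27-ps3 (0.75). The most opposed were Ralb (-0.72), Icmt (-0.69), Pias3 (-0.67), Rnf39 (-0.65) and Bag3 (-0.64). Among the nearest within groups were Smoc2 (0.80), Ifitm2 (0.79), Pcna (0.79) and Tcof1 (0.79). Depth entered these orders: with the log2 total removed over 36 libraries, Hnrnph1 was at 0.58, Snx1 at 0.60 and Smoc2 at 0.53, while Pcna was at 0.35 and Tcof1 at 0.06.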

How the data were processed

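The authors deposited a table of raw counts per gene for 36 libraries made from polyA RNA by Sort-seq. STAR 2.7.8a and UMI-tools 1.1.1 are named in the submitters' processing notes, with the build, annotation and counting details not given in the sources used here. All 36 columns matched a sample by its labels. Levels are counts as a share of the library total, scaled to 1000000 (CPM). Tests used edgeR 4.0.16 (R 4.3.3): filterByExpr, TMM factors (0.921 to 1.07), robust quasi-likelihood fit, 12 group coefficients, 24 residual degrees of freedom, and Benjamini-Hochberg adjustment over 11462 genes at 0.05. The treatment contrasts are equal-weight means of the durations. DESeq2 1.42.0 and limma 3.58.1 (voom with quality weights) were alternatives, besides other scalings, no filter, thinning, the library total as covariate, replicate blocks and leaving out replicates. Correlations used 100000 permutations. Partner genes got a pseudocount of 1 CPM on the log2 scale. Scripts were tested on simulated data. Hes1, the gene lists and the tests were chosen with earlier results of these data known. Genes named as most like Hes1 are among the 5 highest and 5 lowest by r, and 1 of these is not reported here.

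The replicate numbers were checked by correlating deviations from group means. For 130 and 170 min all 9 same-number pairs were over 0.1 (0.240 to 0.590), so these numbers were taken to pair those libraries, from the data and not from the labels. The 54 pairs over all treatments ranged from -0.416 to 0.590.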

Additional observations from a re-analysis of the deposited data

How the results depend on the processing

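Of 1151 alternative edgeR, DESeq2 and voom values for 22 Hes1 results, 0 passed the adjusted threshold (lowest adjusted p 0.0638) and 73 changed sign. As means of the durations, the differences of 90 min from DMSO and from 130 min and of 170 min from 90 min kept their sign in all of them. The cause of the changes of sign was not tested. The F tests were not run in DESeq2.

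The changes of sign were as follows, where a period at 24 or 72 h is compared with DMSO of that time. Scaling to the library total gave 0.0041 for 170 min vs DMSO, -0.016 for 130 min at 72 h, 0.014 for 48 vs 24 h and -0.025 for 72 vs 48 h. Upper quartile factors gave 0.0072 for 170 min vs DMSO, -0.0085 for 130 min at 72 h and -0.020 for 72 vs 48 h, and no filter gave -0.022 for 130 min at 72 h and -0.012 for 72 vs 48 h. The library total as covariate gave 0.093 for 170 min vs DMSO, 0.0084 for all pulses, 0.057 for 170 vs 130 min, 0.035 for 130 min at 24 h, 0.11 for 170 min at 24 h, -0.075 for 130 min at 72 h, 0.023 for 48 vs 24 h and -0.046 for 72 vs 48 h. Thinning gave -0.0052 for 130 min vs DMSO and -0.024 for 72 vs 48 h. Without libraries under 700000 the values were 0.0011 for 130 min at 24 h, -0.039 for 130 min at 72 h, 0.0081 for 48 vs 24 h and -0.014 for 72 vs 48 h. Without 24 h they were 0.027 for 170 min vs DMSO, 0.0056 for all pulses and -0.0020 for 72 vs 48 h. Scaling to abundant genes, added after seeing the data, gave 0.063 for 170 min vs DMSO, 0.047 for 170 vs 130 min, 0.054 for 170 min at 24 h, -0.026 for 130 min at 72 h, 0.045 for 48 vs 24 h and -0.054 for 72 vs 48 h. In the exact permutation test on the TMM scale, 170 min vs DMSO was -0.038. The within-group r with the mitochondrial share was 0.58 on that scale (adjusted permutation p 0.0218).

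With a replicate block within durations, 90 min differed from DMSO by -0.22 (edgeR adjusted p 0.499) and from 130 min by -0.25 (adjusted p 0.251), and no Hes1 call changed. The block over all durations gave -8.6e-06 for 72 vs 48 h. The block with the library total gave 0.057 for 170 min vs DMSO, 0.022 for 170 vs 130 min, 0.0061 for 130 min at 24 h, 0.044 for 170 min at 24 h, -0.052 for 130 min at 72 h, 0.012 for 48 vs 24 h and -0.033 for 72 vs 48 h. Pairing 130 with 170 min libraries alone, added after seeing the data, gave -0.06 for Hes1, and 11 genes were called against 0 without pairing over all 36 libraries. For 90 min and DMSO the same-number correlations were 0.138 to 0.428 at 24 h, 0.173 to 0.491 at 48 h and 0.086 to 0.116 at 72 h, so not every pair was over 0.1. With the block, 90 min vs DMSO was -0.44 at 24 h (edgeR adjusted p 0.393) and -0.17 at 48 h (adjusted p 1.0). The remaining numbers are shared as numbers only, and 14 of 36 libraries correlated best with their own number.

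The next ranges cover leaving out 1 library, or 1 replicate number from every group. They were -0.28 to -0.17 for 90 min vs DMSO, -0.29 to -0.22 for 90 vs 130 min and -0.028 to 0.062 for 130 min vs DMSO. The ends of the first 2 came from leaving out a replicate number. At 24 h the range was -0.63 to -0.31 for 90 min, -0.25 to 0.012 for 130 min and -0.33 to -0.028 for 170 min. At 48 h it was -0.22 to -0.094, 0.10 to 0.21 and 0.026 to 0.23. At 72 h it was -0.11 to 0.044 for 90 min, -0.087 to 0.099 for 130 min and -0.17 to 4.3e-04 for 170 min. It was -0.074 to 0.078 for 48 vs 24 h, -0.060 to 0.0057 for 72 vs 24 h and -0.13 to 0.067 for 72 vs 48 h. In the exact permutation test only whole replicate numbers were left out. The range there was -0.20 to -0.17 for 90 vs 130 min and -0.033 to 0.0053 for 170 vs 130 min. It was -0.020 to 0.035 for 130 min vs DMSO and -0.028 to 0.040 for 170 min vs DMSO. Counting error alone gave Hes1 a mean SD of 18.8 CPM per library, below the pooled within-group SD of 32.2 CPM.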
